A study of Mus musculus with 4 samples.

Results

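The perilipin genes Plin1, Plin2 and Plin4 encode proteins that coat the lipid droplets of cells, and their transcripts were followed in C2C12 cells, a mouse myoblast line, with and without the compound labelled Bex. They are the 3 genes taken by exact symbol from the authors' deposited table of 559 transcript clusters (the probe groups of an array that stand for a gene). The clusters of that table differed 1.5-fold or more between the conditions by the authors' own averages. Each of the 3 had 1 cluster, and each cluster's log2 values were read from the table of all 35557 clusters. The authors' own unadjusted p-values were also below 0.05 for all single genes named in that table. Being in it thus went with a small spread between the arrays of a group as well as with a large difference. The members were therefore chosen by the same Bex against Ctrl contrast that is described below, and their differences are given as a description with no test. Plin3 and Plin5, the other perilipins, were not analysed here.

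All cells were C2C12, grown to confluence and then kept for 48 h in a basal medium for adipogenesis. The Ctrl group (2 arrays) had the medium alone and the Bex10 group (2 arrays) had the same medium with 10 µM Bex. The labels do not spell out Bex; what is known of the study identifies it as bexarotene, a drug that activates retinoid X receptors, the partners of peroxisome proliferator-activated receptors (PPARs). C2C12 is a single immortal line that normally forms myotubes, and the labels speak of a pair of cell batches without tying arrays to them, so the spread between the arrays of a group may be partly technical. With 2 arrays a group, the number of arrays limits the precision of every value. Array medians lay between 5.76 and 5.80 (log2).

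Perilipins sit on the surface of the droplet and govern the access of lipases to the triglyceride inside. Plin1 is the main coat protein of fat cells, where it holds the lipase coactivator Abhd5 until the cell is stimulated. Plin2 coats droplets in most cell types, including muscle and lipid-laden macrophages, and its protein is broken down when it is not bound to lipid. Plin4 coats small, growing droplets of fat cells through a long stretch of repeats. All 3 genes are known targets of PPARs in fat cells, and this is why the bases before a start site of each gene are shown first.

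The 250 bases before a start site of each gene, from RefSeq on build GRCm38.p6, are printed 5′ to 3′. They are on the gene's own strand, which is the minus strand for all 3. They are the stretch in which a search was made for a PPAR-type element, a direct repeat of the half-site AGGTCA with 1 base between its copies (DR1). Capitals mark the stretch that matches most letters of that repeat on either strand, the one farthest upstream where several tied, and CCAAT on either strand. The windows lie at chr7:79732777-79733026, chr4:86670060-86670309 and chr17:56109783-56110032. The RefSeq gene spans reach positions 79732904, 86670217 and 56109948, so part of each window lies inside the span of its gene. The start site used is thus not the outermost one.
Plin1: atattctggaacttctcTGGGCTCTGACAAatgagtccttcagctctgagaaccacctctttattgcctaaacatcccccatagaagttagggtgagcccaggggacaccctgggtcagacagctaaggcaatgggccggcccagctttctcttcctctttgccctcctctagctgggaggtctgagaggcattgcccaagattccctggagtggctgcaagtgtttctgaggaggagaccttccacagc
Plin2: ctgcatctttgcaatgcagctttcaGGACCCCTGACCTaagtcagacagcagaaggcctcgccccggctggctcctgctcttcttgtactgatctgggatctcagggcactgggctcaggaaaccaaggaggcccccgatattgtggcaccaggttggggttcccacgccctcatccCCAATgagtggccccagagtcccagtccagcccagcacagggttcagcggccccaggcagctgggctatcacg
Plin4: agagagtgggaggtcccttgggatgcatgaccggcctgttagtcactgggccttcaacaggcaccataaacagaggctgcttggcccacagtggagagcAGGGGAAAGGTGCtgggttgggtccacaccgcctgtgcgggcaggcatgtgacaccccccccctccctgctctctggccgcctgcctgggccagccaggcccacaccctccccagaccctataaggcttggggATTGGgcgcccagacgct

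A full DR1 was in none of the 3 windows, nor was its loose form, with AGGNCA as the half-site, and these forms were in 0.0335% and 0.338% of 32851 windows of the same length. The Plin2 window held the half-site on the opposite strand, 218 to 213 bases before the start, and 14.0% of all windows held one. Around it lay the match AGGTCAGGGGTCC, read on the opposite strand 225 to 213 bases before the start, which shares 10 of the 12 fixed letters of the repeat, and 3.24% of windows had a match as good. The best matches in the Plin1 and Plin4 windows shared 8 of 12 letters, and 74.5% of all windows had a best match of 8 letters or more; 4 stretches tied in Plin1 and 2 in Plin4. CCAAT stood 73 to 69 bases before the start of Plin2 and, on the opposite strand, 18 to 14 bases before that of Plin4, and 33.8% of windows held it. The motif CANNTG was in all 3 windows and in 66.2% of all windows, and in Plin1 it overlapped the marked stretch. A direct repeat of AGGTCA with 4 bases between its copies was in none of the 3 windows, and 0.0152% of all windows held one. The TATA motif TATAAA (12.4% of all windows), the GC box GGGCGG (32.7%) and the motif TTGCNNCAA (1.74%) were also in none of the 3. Only these exact letters were searched, so TATAAG, which the Plin4 window holds, was not counted. Neither the sterol-type motif TCACNCCAC (1.05%) nor the hypoxia-type motif NACGTG (16.5%) was in any of the 3. The hypoxia-type search covered ACGTG only, so GCGTG, which the Plin2 window holds on the opposite strand, was not counted. GC content was 54.0% for Plin1, 61.6% for Plin2 and 65.2% for Plin4, against a median of 52.4%. These matches describe letters, not binding, and sites outside the windows were not searched.

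Each perilipin was higher on both Bex arrays than on both Ctrl arrays, by 2.71-fold to 3.23-fold on average. Values are the authors' log2 values, and levels of different clusters cannot be set against each other, because probes differ in brightness. Plin1 read 6.27 and 6.17 on Ctrl arrays 1 and 2, and 7.69 and 8.14 on Bex arrays 1 and 2. The Bex arrays were both higher, but they lay farther apart than the Ctrl arrays. The mean was 6.22 ± 0.07 in Ctrl and 7.91 ± 0.32 in Bex (SD, n = 2 each), a difference of 1.69 ± 0.18 (log2, SE of the fit over all clusters) or 3.23-fold.

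Plin2 read 10.46 and 10.43 on the Ctrl arrays, against 12.03 and 12.07 on the Bex arrays. The arrays of each group lay close together and the groups were far apart. The mean was 10.45 ± 0.02 in Ctrl and 12.05 ± 0.03 in Bex (SD, n = 2 each), a difference of 1.61 ± 0.08 (log2, SE) or 3.04-fold.

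Plin4 read 6.557 and 6.591 on the Ctrl arrays against 8.003 and 8.018 on the Bex arrays. Both groups were again tight, with no overlap. The mean was 6.57 ± 0.02 in Ctrl and 8.01 ± 0.01 in Bex (SD, n = 2 each), a difference of 1.44 ± 0.08 (log2, SE) or 2.71-fold.

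**Figure D1:**
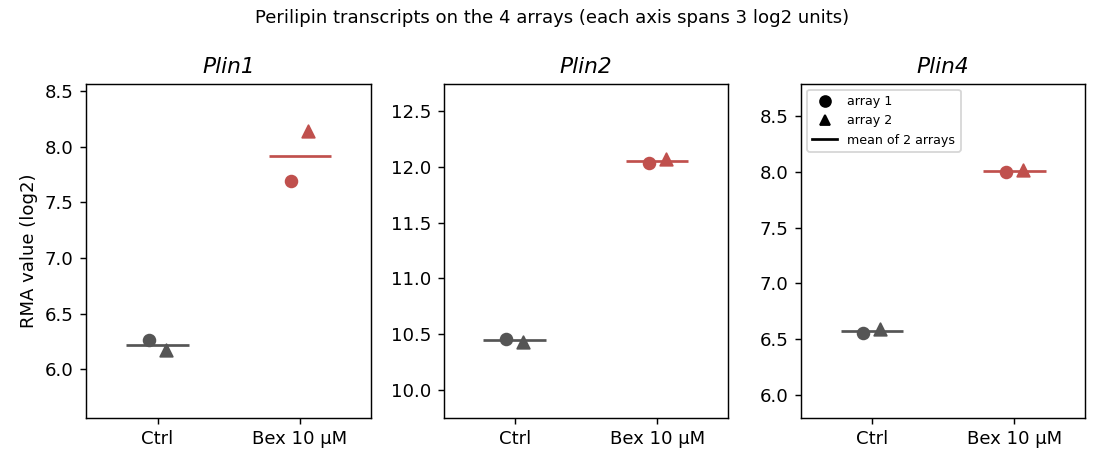
RMA values (log2) of Plin1, Plin2 and Plin4 on the Ctrl and Bex arrays, with circles for the arrays numbered 1, triangles for those numbered 2 and a line at the mean of 2 arrays. The Bex arrays lie above the Ctrl arrays in each panel, and the Plin1 Bex arrays, at 7.69 and 8.14, are the farthest apart.

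The groups did not overlap for 3 of 3 members. The choice of the members all but fixes this, since the authors' unadjusted p-values for them were below 0.05 with 2 arrays a group. Both Bex arrays lay above both Ctrl arrays for 20.6% of all clusters, which were not so chosen, and the members cannot be weighed against that share. A difference of 1.5-fold or more upward, with no test, was found for 3.62% of all clusters, and the choice of the members all but fixes their place among these. The test of every cluster, limma with Benjamini-Hochberg adjustment at 0.05, called 0 of 35557 clusters (0%), against 4189 at an unadjusted p under 0.05. No call is given for the members themselves. Since whole dishes were measured, more RNA per cell and more cells that carry the transcript cannot be told apart.

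The differences of the 3 genes were of like size, and their order was not stable between arrays. In the arrays numbered 1 the difference (log2) was 1.42 for Plin1, 1.58 for Plin2 and 1.45 for Plin4. In those numbered 2 it was 1.96 for Plin1, 1.64 for Plin2 and 1.43 for Plin4. Plin1 was thus the lowest of the 3 in the arrays numbered 1 and the highest in those numbered 2. The numbers were not taken as a pairing, and the place of Plin1 against Plin4 depends on which arrays are set together. Over any choice of 1 Bex and 1 Ctrl array, the difference (log2) lay between 1.42 and 1.96 for Plin1, between 1.58 and 1.64 for Plin2, and between 1.41 and 1.46 for Plin4. The ranges of Plin2 and Plin4 do not touch, whereas that of Plin1 spans nearly all of both. The mean difference of Plin1 exceeded that of Plin2 by 0.09 and that of Plin4 by 0.26, and Plin2 exceeded Plin4 by 0.17 (log2), values that were not tested because all come from the contrast that chose the genes.

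The wide spread of Plin1 was seen on the Bex arrays alone. Its Bex arrays differed by 0.45 (log2), where the 1000 clusters of nearest mean level had a median gap of 0.14 between those arrays. Of these clusters 91.1% had a smaller gap than Plin1, and the rest did not. The Ctrl arrays of Plin1 differed by 0.10 against a median gap of 0.12. For Plin2 the gaps were 0.04 on the Bex arrays and 0.02 on the Ctrl arrays, and for Plin4 they were 0.02 and 0.03. Across the 336 named genes that were higher with Bex, Bex array 2 minus Bex array 1 had a median of −0.01 (log2), so the arrays did not differ in general in the direction of Plin1.

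In the authors' deposited table the fold changes were 3.54 for Plin1, 3.25 for Plin4 and 3.11 for Plin2, which puts Plin4 before Plin2, where the array values put it last. The authors' deposited averages (log2) for Plin4 were 6.09 in Ctrl and 7.79 in Bex, below the means of the array values by 0.48 and 0.22. For Plin2 the authors' deposited averages, 10.43 and 12.06, lay within 0.02 of those means, and for Plin1, at 6.15 and 7.97, within 0.07. The lowest fold in the authors' deposited table was 1.51, so all 3 genes stood well inside its limit. The authors' deposited FDR p-values were 0.339, 0.260 and 0.304 for Plin1, Plin2 and Plin4, from their own analysis of the same arrays.

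Among the 336 named genes higher with Bex, whose median difference was 0.88 (log2), Plin1 ranked 41st, Plin2 49th and Plin4 68th by difference. Over all 35557 clusters, whose median difference was −0.01, their places were 75, 95 and 145. The perilipins were thus in the upper part of a list that was itself selected for size, and in which the authors' unadjusted p-values were all below 0.05.

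**Figure D2:**
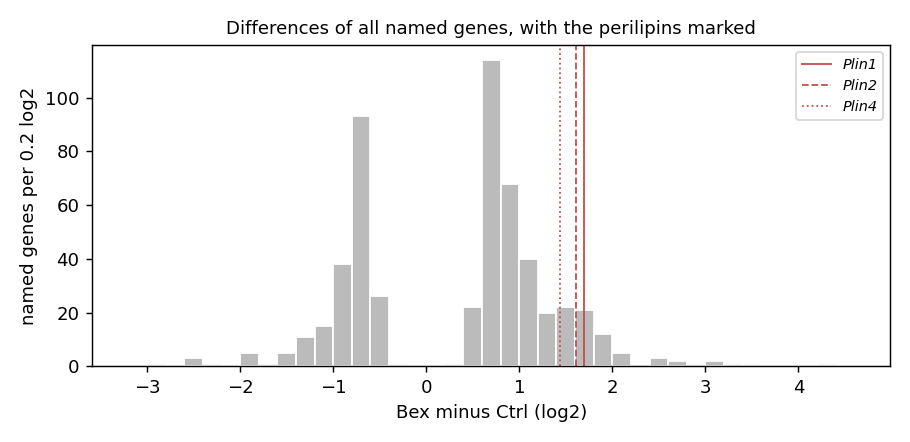
Number of named genes (536) by Bex minus Ctrl difference (log2), in steps of 0.2, with lines at Plin1 (1.69), Plin2 (1.61) and Plin4 (1.44). The empty stretch around 0 is made by the cutoff of the authors' table, and the perilipins lie beyond the median of the higher genes, 0.88.

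Names came only from the authors' deposited table, so other genes of the droplet could be described only where they too were in it. By the authors' own averages its named genes differed 1.5-fold or more, and they also had unadjusted p-values of the authors below 0.05. By the array values some of them fell short of 1.5-fold, such as Ly6a at 1.49-fold lower. By the array values 2292 clusters differed 1.5-fold with no test, against 559 clusters in that table. A gene without a name here may thus have differed 1.5-fold as well. Counts below are thus selected, and none of the listed genes passed the limma test over all clusters. An alternative fit, in which the prior variance follows the level, called 427 clusters, 1.20% of all, 0.762% upward and 0.439% downward, and passing below refers to it. Among the preselected named genes it passed 194 of 336 higher genes (57.7%) and 107 of 200 lower genes (53.5%), and these shares, not those over all clusters, are the background for the counts of each list. That fit called 0 clusters without Ctrl array 1, 0 without Ctrl array 2, 23 without Bex array 1 and 32 without Bex array 2.

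Of 25 other genes listed for the droplet surface, 4 were named, 3 higher and 1 lower, with a median difference of 0.80 (log2) against 0.67 over the 536 named genes. Among them, 1 passed upward and 1 downward. G0s2, which inhibits the triglyceride lipase Pnpla2, rose. It read 10.05 on both Ctrl arrays, against 11.65 and 11.68 on the Bex arrays, a 3.06-fold difference (1.62 ± 0.08, log2, SE, limma adjusted p = 0.00421 with the variance trend and 0.0682 without). Hilpda, a droplet protein induced by hypoxia that also restrains that lipase, was at 0.89 ± 0.16 and Aifm2, a quinone reductase found on droplets, at 0.70 ± 0.11 (log2), and neither passed. Cav1, the main protein of caveolae, which also reaches droplets, fell. It read 8.76 and 8.62 on the Ctrl arrays, against 6.63 and 6.94 on the Bex arrays, a difference of −1.91 ± 0.14 (log2, SE, limma adjusted p = 0.0179 with the variance trend and 0.107 without).

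Of 16 genes listed for lipolysis, 2 were named, both higher, and 1 passed. Abhd5, the lipase coactivator that Plin1 binds, read 9.19 and 8.90 on the Ctrl arrays, against 9.82 and 9.81 on the Bex arrays. Its groups did not overlap, but its difference of 0.77 ± 0.13 (log2, SE), below that of any perilipin, did not pass (limma adjusted p = 0.0666 with the variance trend). Mgll, which splits the last fatty acid from monoacylglycerol, rose by 2.80 ± 0.15 (log2, SE, limma adjusted p = 0.00891 with the variance trend).

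Of 21 genes listed for triglyceride assembly, 6 were named, all higher, with a median difference of 1.27 (log2), and 4 passed, a share near that of all higher named genes. The diacylglycerol acyltransferases Dgat2 and Dgat1, which make the triglyceride that fills the droplet, rose by 2.56 ± 0.10 and 1.88 ± 0.09 (log2, SE). Lpin1, a phosphatidate phosphatase, rose by 1.46 ± 0.10 and Acsl1, an acyl-CoA synthetase, by 1.08 ± 0.08. The acyltransferase Agpat2, at 1.03 ± 0.15, and Acsl3, an acyl-CoA synthetase of nascent droplets, at 0.59 ± 0.11, did not pass. Of these 6 genes, Dgat2 and Dgat1 had larger differences than any perilipin, and Lpin1 lay between Plin2 and Plin4.

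Of 23 listed genes that could regulate perilipin transcription, 5 were named, 3 higher and 2 lower, and only Pparg passed. Pparg, the PPAR that directs fat cell formation, read 7.84 and 7.69 on the Ctrl arrays, against 9.60 and 9.63 on the Bex arrays, a rise of 1.85 ± 0.09 (log2, SE, limma adjusted p = 0.00720 with the variance trend). Srebf1, a factor for lipid synthesis, was at 0.74 ± 0.12 and the coactivator Ppargc1a at 0.65 ± 0.15 (log2). The retinoic acid receptor Rara was at −0.62 ± 0.10 and Cebpd, a factor of early adipogenesis, at −0.60 ± 0.10. Among 32 other listed PPAR targets 13 were named, 12 higher and 1 lower, with a median of 1.22 (log2), and 11 passed upward and 1 downward. The fatty acid carriers and transporter Fabp3, Cd36 and Fabp4 had the largest differences of these, 3.51 ± 0.20, 3.05 ± 0.18 and 2.56 ± 0.16 (log2, SE), all above the perilipins.

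**Figure D3:**
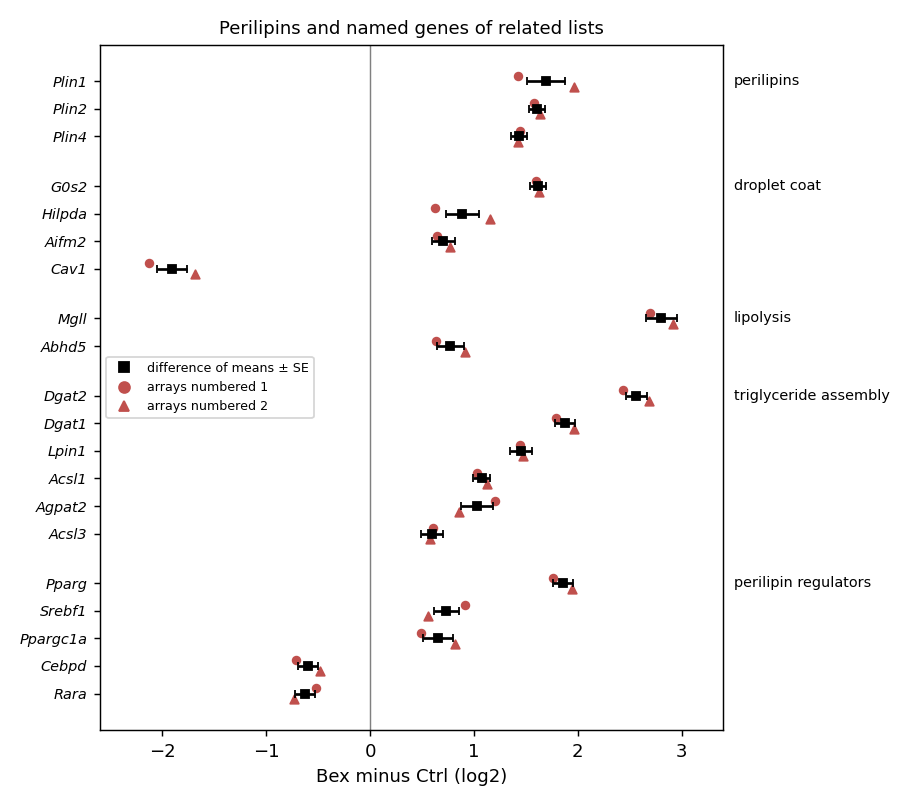
Bex minus Ctrl difference (log2) of the perilipins and of the named genes of 4 related lists, with black squares and bars for the difference of means ± SE and red circles and triangles for the arrays numbered 1 and 2. Cav1, at −1.91, lies opposite to the perilipins, and G0s2, at 1.62, lies beside Plin2.

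Named genes whose pattern over the 4 arrays was nearest to each perilipin were found by Euclidean distance, after each gene's log2 values were centred on their own mean, among the other 535 named genes. For Plin2 the nearest was G0s2, at a distance of 0.02, so that the 2 droplet genes ran together on every array. Also among its 5 nearest were Enpep, an aminopeptidase, at 0.05, and the receptor subunit Calcrl and the hormone Fgf21 at 0.11 each. For Plin4 the nearest was Lpl, the lipoprotein lipase that frees fatty acids outside the cell, at 0.06. It was followed by the desaturase Fads2 at 0.07, the muscle integrin partner Itgb1bp2 and the transcription factor Fosl1 at 0.08 each, and the adhesion molecule Alcam at 0.12. For Plin1 the nearest genes were farther off, with the angiotensin precursor Agt at 0.19, the fast myosin heavy chain Myh4 at 0.20, the fatty acid elongase Elovl4 and the calcium-binding S100a8 at 0.21 each, and Pex11a at 0.23. The gap between the Bex arrays of Plin1 is part of the distance, so genes with a like gap were favoured. The myosin heavy chains are close copies of each other that one probe can detect together, which makes the value of Myh4 uncertain.

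The perilipins were not each other's nearest genes. Plin2 and Plin4 were 0.18 apart, Plin1 and Plin2 0.31 and Plin1 and Plin4 0.41, and 13 named genes lay nearer to Plin2 than Plin4 did. With 4 arrays, distance mostly reflects the size of the difference and the gap between arrays of a group. When profiles were scaled to the same Bex minus Ctrl difference, 1 of the 5 nearest genes was shared for Plin1, 1 for Plin2 and 0 for Plin4.

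**Figure D4:**
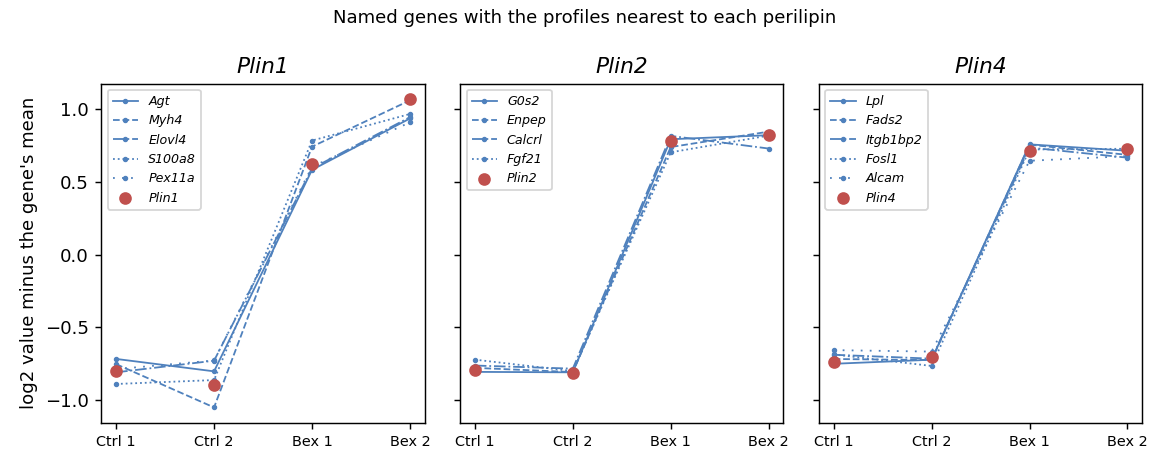
Log2 values minus the gene's own mean on the 4 arrays for each perilipin (red points) and its nearest named genes (blue lines, which only join the points of a gene; 5 for Plin1 and Plin4 and 4 for Plin2). Plin2 and G0s2 nearly coincide, 0.02 apart, while the genes around Plin1 spread more widely.

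Pex11a, which drives the multiplication of peroxisomes and is itself a PPAR target, is also the next protein-coding gene upstream of Plin1 in RefSeq, on the same strand. The neighbour on the other side is Kif7, which was not analysed here. Pex11a read 6.28 and 6.34 on the Ctrl arrays, against 7.68 and 7.98 on the Bex arrays, and its difference was 1.51 ± 0.14 (log2, SE). Plin1 and Pex11a were thus both higher on both Bex arrays. The 250-base window of Pex11a held no DR1 and no AGGTCA. The neighbours of Plin4 are Hdgfl2 and Plin5, and those of Plin2 are Haus6 and Dennd4c among protein-coding genes, and these 4 were not analysed here.

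Named markers of skeletal muscle, the lineage of C2C12, differed as well, and their part in the perilipin differences was not tested. Macrophage markers could not be described as a group, because only 1 was named. Of 36 skeletal muscle genes 14 were named, with Ctrl values from 5.03 to 11.11 (log2). Of these, 13 were higher and 1 lower, with a median difference of 0.97, and 8 passed upward and 1 downward, again near the share of all named genes. Myh8, Myh1 and Myh4 led them at 2.06 ± 0.17, 2.00 ± 0.09 and 1.80 ± 0.18 (log2, SE), and Pax7, a satellite cell factor, was the lower one at −0.60 ± 0.08. The sum of their linear values, in which the brightest probes weigh most, was 8720 and 7900 on the Ctrl arrays, against 16400 and 14600 on the Bex arrays. Of 14 macrophage genes only Cd14 was named, at 0.90 ± 0.16 (log2), and did not pass; its linear value was 81.8 and 107 on the Ctrl arrays, against 173 and 176 on the Bex arrays. The other listed markers, among them the myogenic factor Myod1 and the macrophage genes Cd68 and Csf1r, were not analysed here.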

How the data were processed

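Total RNA of 4 C2C12 samples was, per the labels' protocols, amplified, tagged with biotin and read on Affymetrix mouse gene arrays. The authors deposited log2 values made by RMA with core exons in Affymetrix Expression Console, per the labels. RMA evens out the overall level of arrays and would hide a general shift. A second deposited table, per the submitters' processing notes from Transcriptome Analysis Console, holds log2 averages for each group, a score (the fold change, with a minus sign where Ctrl is higher), and ANOVA and FDR p-values, per the file headers. Software versions, the genome build and the annotation release: not given in the sources used here.

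Groups and replicate numbers came from the titles. The comparison was fitted over all 35557 clusters with limma 3.58.1 (lmFit, eBayes) in R 4.3.3, with no covariate or filter, Benjamini-Hochberg adjustment and a threshold of 0.05. The fit was also run on simulated arrays with known changes. There the variances were shuffled over the clusters, so a link between level and variance was not covered. Array control clusters are not marked and were kept. Of the 559 named clusters 545 had 1 symbol, for 536 genes, and 535 symbols were found in RefSeq. The cluster with the highest mean stood for a gene. The text names the members, the 5 nearest profiles of each (1 gene near Plin2 is not reported here), all named genes of 4 related lists (droplet surface, lipolysis, triglyceride assembly, regulators), the 3 largest differences of each other list, and the neighbours of the members. Members and lists were chosen with earlier results of these data known. Promoter windows came from RefSeq (GRCm38.p6; 32851 windows of 27025 genes), and the first 250 bases of each were searched on both strands. No protein sequence was used here. Python 3.11.15, pandas 2.3.3, numpy 2.4.6 and matplotlib 3.10.9 were used.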

Additional observations from a re-analysis of the deposited data

How the results depend on the processing

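The count of 0 called clusters stayed 0 with a median shift, quantile normalization, the replicate block and each array left out. It was 427 when the prior variance followed the level, 105 when the dimmest 30% of clusters were dropped (mean below 4.57), 297 when the 6669 clusters numbered below the authors' lowest cluster were dropped, 80 at an adjusted p of 0.1 and 2292 at 1.5-fold with no test. Under the trend it was 0 without Ctrl array 1 or Ctrl array 2, 23 without Bex array 1 and 32 without Bex array 2, where 1 group has a single array that is assumed to vary like the other group. The titles give both groups replicate numbers 1 and 2, but same-numbered arrays did not deviate together (correlation 0.01 over all clusters, which are not independent). With the replicate block added to the variance trend, 158 clusters were called. The block leaves the perilipin differences as they are and changes the SE (log2) to 0.18 for Plin1 and 0.09 for Plin2 and for Plin4.

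The 3 differences kept their direction under every alternative run. With each array left out they lay between 1.47 and 1.92 for Plin1, 1.59 and 1.63 for Plin2, and 1.42 and 1.45 for Plin4 (log2). A median shift, which subtracts each array's median, moved all 3 alike, to 1.72 for Plin1, 1.63 for Plin2 and 1.46 for Plin4. For Plin2 and Plin4 this was beyond the SD pooled over both groups. The authors' deposited averages gave 1.70 for Plin4, also beyond that SD, and the cause was not tested. They gave 1.63 for Plin2, a move too small to judge from averages rounded to 2 decimals. Counting only genes at 1.5-fold in both same-numbered pairs, regulators fell from 3 to 1 higher and from 2 to 0 lower, brown fat markers from 5 to 3 higher, and muscle markers from 1 to 0 lower. The other list counts stayed within 1.5 times under each alternative. No array detection calls were used, so signal over background is unknown; all perilipin values lay above 4.57.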

Other observations

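Of 20 adipocyte markers 7 were named, all higher, with a median difference of 1.47 (log2), and 6 passed the variance-trend fit. Cd36, Fabp4 and Pparg led them, and these 7 include genes of the PPAR target and triglyceride lists, so they are not separate evidence. Of 18 brown fat markers 5 were named, all higher, with a median of 1.10, and 3 passed. They include Fgf21 and Ucp3, also listed as PPAR targets, and Ppargc1a, also a listed regulator, so they are not separate evidence. Fgf21 was at 1.52 ± 0.09, the uncoupling protein gene Ucp3 at 1.22 ± 0.14, which did not pass (limma adjusted p = 0.0508), and Cox8b, a cytochrome oxidase subunit, at 1.10 ± 0.10 (log2, SE). Fibroblast and progenitor markers went the other way, with 5 of 17 named, 1 higher and 4 lower, a median of −0.74, and 3 passing downward. The surface protein Cd34 fell by 1.21 ± 0.08 (log2, SE). Fap, a surface protease, was at 0.96 ± 0.22 without passing and read 3.31 and 3.36 on the Ctrl arrays, below the limit of 4.57 used for dim clusters. The matrix proteoglycan Dcn was at −0.78 ± 0.10, and did not pass.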
